A study of Mus musculus with 8 samples.

Results

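Open chromatin of mouse melanoma cells was compared between a line labelled STAT3 knockout, line 113, and a line labelled wild type, line 119. The comparison used the 2 columns of each line in the deposited table of raw counts, which makes 4 of the 8 libraries of the series, and every region that passed a filter on low counts: 134068 of 148664 regions. The assay was ATAC-seq, in which a transposase cuts accessible DNA and leaves sequencing adapters there, so that a region with more counts was more open. Per the labels, the lines were grown from lymph node cells of mice that developed cutaneous melanoma at 25 to 30 weeks of age, 50000 cells went into each reaction with digitonin, and fragments over 1200 bp were removed. The knockout line carries the allele written Stat3∆ and the wild-type line the allele written Stat3fl. The titles of line 113 also carry p44 and those of line 119 p14, which the labels do not explain. The growth protocol calls the lines pools and the sample descriptions call them clones. The driver of the tumours, the Cre that made the deletion, the strain and the deleted part of Stat3 are not named in the labels. The other knockout line, 112, and the other wild-type line, 73, share no library with this pair; they entered the filter and the shared estimate of spread, and their own difference is set beside that of lines 113 and 119. Each line stands alone for its genotype here, so that genotype, line, p number, sex chromosome content and other chromosomal differences cannot be told apart.

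STAT3 is a transcription factor that cytokine receptors of the gp130 family and growth factor receptors activate through Janus kinases, and SOCS proteins shut the signal off. Melanocytes come from the neural crest, and the transcription factor MITF, together with SOX10 and PAX3, switches on the pigment genes by binding E-boxes, short DNA motifs whose core is CATGTG or CACGTG. Melanoma cells can lose this pigment programme and take on a mesenchymal, wound-like state with AXL, tenascin, collagens and chemokines, in which AP-1 sites are widely open.

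Line 113 gave 5029386 and 4450860 counts over the regions and line 119 gave 7464336 and 5736939. Across regions, log2 CPM (counts scaled to library size, with the TMM method) correlated at 0.933 between the libraries of line 113 and at 0.959 between those of line 119, against 0.498 to 0.551 between lines. The labels call the libraries biological replicates but do not say that they came from separate cultures, so p-values measure only the spread between these libraries, which may be technical. With edgeR's quasi-likelihood test and Benjamini-Hochberg adjustment, 81992 regions (61.2%) passed 0.05, of which 41584 (31%) were higher in line 113 and 40408 (30.1%) lower. A difference of at least 4-fold was found at 12172 regions (9.08%) in the higher direction and at 18582 (13.9%) in the lower. At these 4-fold regions the median accessibility was 6.85 CPM in line 113 and 0.878 in line 119 where line 113 was higher, and 1.04 and 7.32 CPM where it was lower. Differences of 16-fold or more numbered 1415 higher and 1574 lower. Without replicate 1 of line 119, the deepest library, 27636 regions were higher.

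Regions at gene starts took a larger share of the counts in line 113, which bears on every gene named below. Regions within 1 kb of a start of a protein-coding gene took 39.8% and 40.0% of the counts of line 113 and 28.3% and 28.6% of those of line 119, and 33.2% to 40.3% in lines 112 and 73. Of 17286 such regions, 63.1% were higher in line 113 and 10.6% lower, yet 2.7% and 3.08% were so by 4-fold. The higher share was 36.8% without replicate 1 of line 119 and 40.5% without its replicate 2. When each of 14261 genes was given its strongest region there, 71.3% of genes were higher and 8.8% lower, with a median log2 fold change of 0.78 over genes and 0.77 over distinct regions. Scaling the libraries on these start regions instead moved the median of all regions from 0.09 to -0.60 and the calls to 18853 higher and 58760 lower, that is 24.3% of calls higher in place of 50.7%. Whether gene starts were more open in line 113 or the rest less open, or the libraries differed in background, cannot be told apart. A start is therefore called higher under both scalings where it passed the test with each of them, which held for 2778 of the 14261 genes (19.5%), and for 18853 regions (14.1%) over the table, 6437 of them (4.8%) at least 4-fold. All 40408 regions that were lower, and the 1255 lower genes among them, were lower under both.

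**Figure D1:**
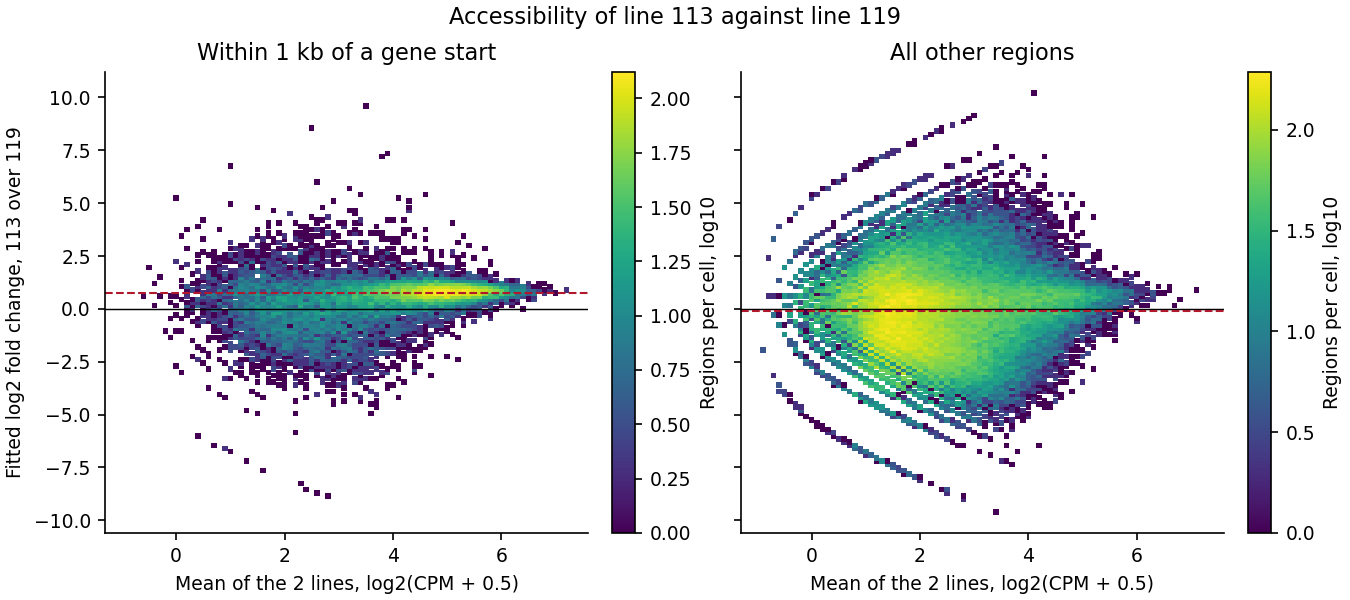
Fitted log2 fold change of line 113 over line 119 (vertical) against the mean of the 2 lines in log2(CPM + 0.5) (horizontal), for 17286 regions within 1 kb of a gene start (left) and 116782 other regions (right). Colour gives the number of regions per square on a log10 scale and the dashed line the median: gene starts form a narrow band around 0.73, and the other regions spread widely around -0.10.

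The strong differences lay away from gene starts. Start regions made up 12.9% of tested regions but 3.84% of the 4-fold higher and 2.86% of the 4-fold lower ones. Regions inside genes made up 53.1% of the 4-fold higher regions, against 44.8% of all, and regions 50 to 500 kb from any gene made up 27.1% of the 4-fold lower ones, against 16.4% of all. Among the 2324 regions over 500 kb from a gene, 34.2% were at least 4-fold lower and 13.9% at least 4-fold higher. The authors' peak calls were made on the same libraries, so they are no separate check on these counts. Of 31310 regions with a peak in all 4 libraries, 2.1% were 4-fold higher and 0.412% 4-fold lower. Peaks called in both libraries of line 113 and in neither of line 119 covered 7571 regions, and the reverse covered 36553, where the median accessibility was 1.67 CPM in line 113 and 5.77 in line 119. Line 119 had more counts, and its peak lists were longer, at 94906 and 85498 peaks against 51700 and 52250. Among the other libraries, replicate 2 of line 112 had the fewest counts, 2697546, and the fewest peaks, 20387. Line 73 had fewer counts than line 113, 4367914 and 3945177, but more peaks, 56497 and 56096. The part of depth in the unequal numbers was not tested.

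**Figure D2:**
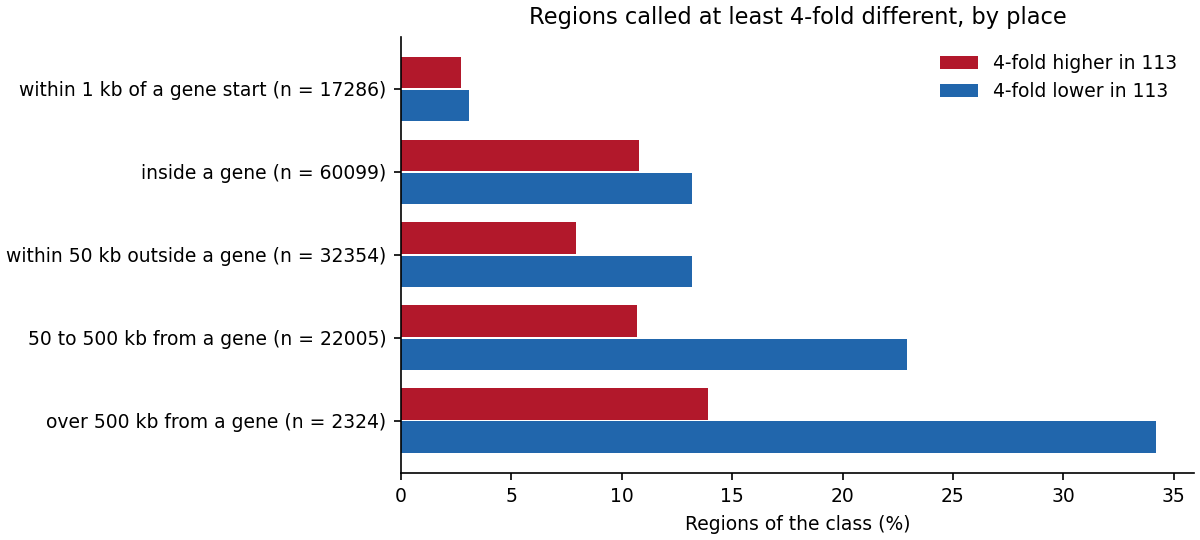
Percent of the tested regions of each class that were at least 4-fold higher (red) or lower (blue) in line 113, by place relative to protein-coding genes. Both shares are smallest at gene starts, 2.7% and 3.08%, and the lower share is largest beyond 500 kb, 34.2%.

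Stat3 itself, the targeted gene, gave signal in every library. The region over its start, chr11:100939208-100939818 (GRCm38), held 39.2 and 38 CPM in line 113 and 18.3 and 18.3 in line 119. Line 112 gave 30.9 and 26.6 CPM, and line 73 gave 38.5 and 27.8. Line 113 was the higher of the pair without overlap, by a log2 fold change of 1.08 ± 0.187 (SE; adjusted p = 2.65e-06, edgeR), and by 0.39 when scaled on gene starts. None of the 11 regions inside the gene was at 0 counts in line 113. Because the deleted part is not named, these regions do not check the knockout.

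Pigment genes stood among the strongest gains of line 113. All 3 enzymes of melanin synthesis were at least 4-fold more open at their starts, against 2.07% of all gene starts. When scaled on gene starts, the log2 fold changes were 3.38 at Dct, 3.22 at Tyrp1 and 1.36 at the strongest region of Tyr, the last under 4-fold. Dct, which acts on dopachrome, held 70.5 and 56.5 CPM in line 113 and 3.37 and 4.24 in line 119 (log2 fold change 4.07 ± 0.232, adjusted p = 2.86e-19, edgeR), with means of 23.2 CPM in line 112 and 0.529 in line 73. Tyrp1, a tyrosinase-related enzyme, held 19.1 and 12.3 CPM against 1.04 and 1.02 (3.90 ± 0.364, adjusted p = 6.9e-13). Tyr, the enzyme of the rate-limiting first step, held 19.1 and 16.9 CPM over its start, chr7:87492930-87493609, against 0.907 and 0.509 (4.57 ± 0.38, adjusted p = 2.32e-14); this region was chosen after its values were seen, and the stronger region next to it gave 2.05 ± 0.272. The libraries of line 113 lay above those of line 119 without overlap at each of these regions. All 4 tested regions inside Tyr were at least 4-fold higher, against 9.08% of all tested regions.

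Genes of the melanosome, the organelle in which pigment is made, followed unevenly. Of 9 genes for its structure and ion transport with a tested start, 8 were higher in line 113 and 4 under both scalings. The shares of all gene starts were 71.3% and 19.5%. Slc45a2, a transporter that sets melanosome pH, held 23.1 and 20.9 CPM against 2.07 and 1.36 (log2 fold change 3.63), and Mlana, a melanosome protein known as MART-1, held 11.8 and 9.08 against 0.648 and 0.848 (3.78). Pmel, which forms the fibrils on which melanin is laid down, differed by 0.98, little more than the median start, at a region that also serves Rab5b, and Gpr143, a pigment cell receptor, did not pass the test (0.34, adjusted p = 0.391). Of 19 genes for melanosome assembly and transport 18 were higher, 5 of them under both scalings, and the list's median of 0.79 was close to the 0.78 of all genes. Rab27a and Mlph, which tether melanosomes to the actin motor, stood out with log2 fold changes of 4.10 (20.5 and 18.4 CPM against 0.778 and 1.53) and 2.21 (29.5 and 26 against 5.7 and 6.27). Hps1, a lysosome-related organelle factor, had a log2 fold change of -0.77 (14.1 and 13 CPM against 22.9 and 23.2).

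The Mitf locus was open at more places in line 113 than in line 119. Of its 3 starts in the reference table, the upstream one (at position 97807058 of chromosome 6) was in use as an open region in both lines, with 37.6 and 35.8 CPM against 17.2 and 20.5 (log2 fold change 0.97, and 0.28 with adjusted p = 0.121 when scaled on gene starts). The most downstream one, at position 97991783, lay in a region, chr6:97991085-97992009, with 19.6 and 16.7 CPM in line 113 and 0.778 and 0.678 in line 119 (4.58 ± 0.377, adjusted p = 1.63e-14, edgeR). That region was chosen after its values were seen; it held 14.5 CPM in line 112 and 0.655 in line 73. A downstream start is known to give the form of MITF made in melanocytes. The start between them differed by 1.14 and just missed the threshold (adjusted p = 0.0502). Of 40 tested regions inside Mitf, 25 were higher and 4 lower, 12 of them at least 4-fold higher and 1 at least 4-fold lower. Over all tested regions 31% were higher and 30.1% lower, 9.08% at least 4-fold higher and 13.9% at least 4-fold lower. Of those 12 regions 10 were also higher in line 112 than in line 73, against 63.6% of all 4-fold higher regions.

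Promoter sequences of RefSeq (GRCm38.p6, mouse reference, 250 bases before the start, written 5′ to 3′ on the gene's strand) are printed for 4 pigment genes and the downstream Mitf start, whose regions were at least 4-fold higher, and for Il11, whose start region was lower; capitals mark E-boxes (CATGTG or its other strand CACATG, and CACGTG) in the first 4, the cyclic AMP response element TGACGTCA in Mitf and the AP-1 motif TGAGTCA in Il11. The matches begin 232 and 150 bases before the start in Dct, 46 in Tyrp1, 246 in Rab27a, 48 in Mlph, 153 in Mitf and 98 in Il11. The regions lie at chr14:118052247-118052496 (minus strand) for Dct, chr4:80833963-80834212 (plus) for Tyrp1, chr9:73063898-73064147 (plus) for Rab27a, chr1:90914850-90915099 (plus) for Mlph, chr6:97991533-97991782 (plus) for Mitf and chr7:4778142-4778391 (minus) for Il11.
Dct: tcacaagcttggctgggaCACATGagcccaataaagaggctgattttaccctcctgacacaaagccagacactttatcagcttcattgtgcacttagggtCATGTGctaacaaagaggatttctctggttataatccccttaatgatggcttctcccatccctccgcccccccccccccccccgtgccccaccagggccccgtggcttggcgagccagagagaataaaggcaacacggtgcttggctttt
Tyrp1: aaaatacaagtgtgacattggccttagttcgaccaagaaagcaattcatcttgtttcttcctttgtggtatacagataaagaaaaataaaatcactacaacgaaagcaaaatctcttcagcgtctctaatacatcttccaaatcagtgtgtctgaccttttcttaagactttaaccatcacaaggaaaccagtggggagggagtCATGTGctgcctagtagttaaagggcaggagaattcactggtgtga
Rab27a: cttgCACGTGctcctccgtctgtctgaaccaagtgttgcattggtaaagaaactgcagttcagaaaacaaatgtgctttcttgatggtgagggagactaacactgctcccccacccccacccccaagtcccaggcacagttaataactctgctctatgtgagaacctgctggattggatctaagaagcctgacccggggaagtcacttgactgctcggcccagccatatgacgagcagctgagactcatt
Mlph: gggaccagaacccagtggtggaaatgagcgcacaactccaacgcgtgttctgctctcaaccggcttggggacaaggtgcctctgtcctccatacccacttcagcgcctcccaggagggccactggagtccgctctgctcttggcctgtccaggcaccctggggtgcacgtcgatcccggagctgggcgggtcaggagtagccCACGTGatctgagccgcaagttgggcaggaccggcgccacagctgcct
Mitf: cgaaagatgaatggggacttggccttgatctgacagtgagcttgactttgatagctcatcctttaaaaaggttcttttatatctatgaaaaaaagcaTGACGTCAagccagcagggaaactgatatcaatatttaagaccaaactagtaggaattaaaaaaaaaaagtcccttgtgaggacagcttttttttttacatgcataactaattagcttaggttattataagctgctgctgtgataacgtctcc
Il11: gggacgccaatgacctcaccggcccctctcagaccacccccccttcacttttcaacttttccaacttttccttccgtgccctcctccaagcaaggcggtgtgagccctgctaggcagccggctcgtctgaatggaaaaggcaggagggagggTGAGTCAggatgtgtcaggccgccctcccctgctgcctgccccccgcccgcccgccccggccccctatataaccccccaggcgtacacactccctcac

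Motifs were counted on both strands in the 250 bases before each start, for the starts that lie in a tested region (11959 promoters), in one at least 4-fold higher in line 113 (187 promoters) and in one at least 4-fold lower (250 promoters). CATGTG was present in 6.51% of all such promoters, 13.9% of the higher and 5.6% of the lower ones. CACGTG was present in 8.59%, 6.42% and 7.6%. The AP-1 motif TGANTCA was present in 4.65%, 3.74% and 19.2%. The STAT motif TTCNNNGAA was present in 5.51%, 7.49% and 8%, and the C/EBP motif TTGCNNAA in 6.85%, 9.63% and 10.8%. AACAAT, a SOX motif, was present in 4.67%, 5.35% and 6.8%, TATAAA in 5.79%, 9.09% and 10.8%, and TGACGTCA in 2.9%, 1.6% and 2.4%. Over all 21262 promoters of the table, whether open or not, CATGTG was present in 10.1% and TGANTCA in 6.13%. Matches of different motifs can overlap, some promoters share a region, and a match is a description of the letters only.

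Among receptors that melanocytes need, Kit, the stem cell factor receptor, held 55.3 and 39 CPM in line 113 against 12.1 and 11.7 (log2 fold change 1.99 ± 0.206), and Ednrb, the endothelin receptor of the lineage, 41.5 and 32.6 against 12.6 and 8.14 (1.82). Mc1r, the melanocortin receptor, differed by 1.38, and these 3 of 7 listed receptors were higher under both scalings, while Met and Fgfr1 did not pass the test (0.36 and -0.32). Transcription factors of the neural crest were split, where 71.3% of all gene starts were higher and 8.8% lower. Of 14 with a tested start 7 were higher, Tbx2 alone under both scalings (81.1 and 65 CPM against 27.2 and 28.1, log2 fold change 1.40), and 7 were lower. The lower ones were Msx2 (1.61 and 3.44 CPM against 12.8 and 11.9, -2.30), Msx1 (-1.20), Sox2 (-1.07), Irf4 (-0.98), Tfap2a (-0.94), Sox9 (-0.46) and Foxd3 (-0.41). Sox10 (0.69) and Pax3 (0.81) did not stand apart from the median start of 0.77, and their values scaled on gene starts were 0.01 and 0.12. The surroundings of Pax3 were different from its start: 16 of 34 regions within 50 kb were at least 4-fold higher and 0 at least 4-fold lower, against 7.93% of regions near genes.

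**Figure D3:**
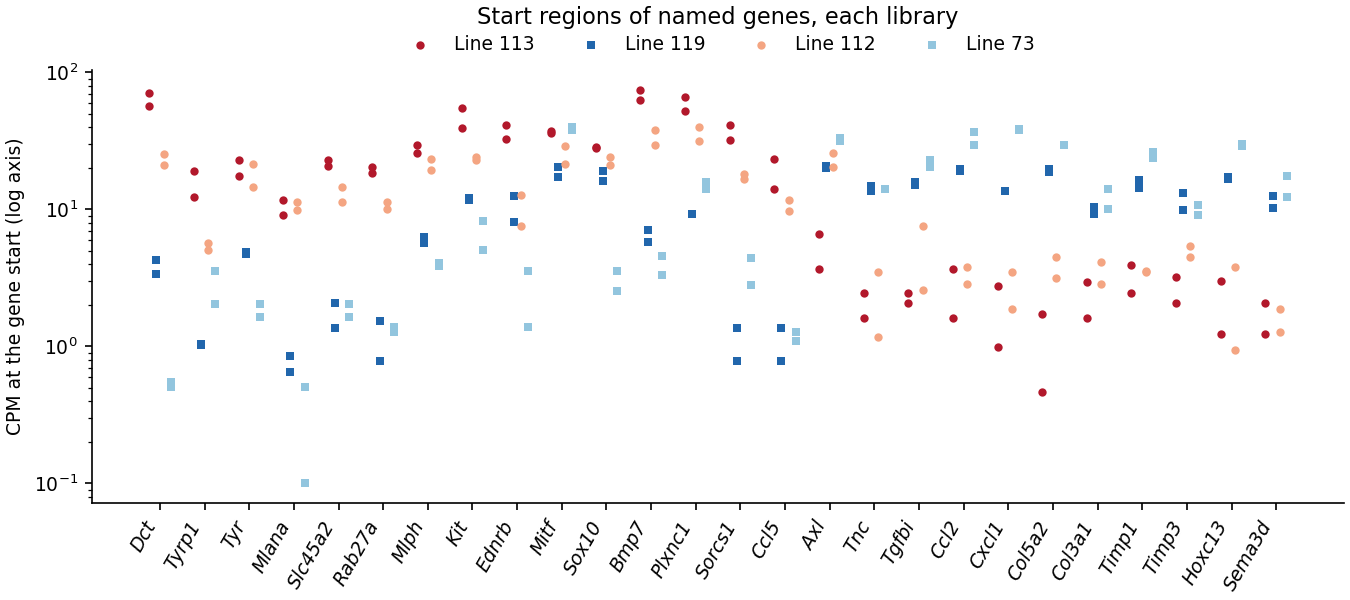
Accessibility in CPM (log axis) at the strongest start region of 26 genes, each point 1 library of the line named in the key; a library with 0 counts, at Mlana in line 73, is drawn at 0.1 CPM. The libraries of line 113 lie above those of line 119 from Dct to Ccl5 and below them from Axl to Sema3d.

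Receptors and ligands of the dedifferentiated state were mixed, with 6 of 15 lower in line 113 and 4 higher, against 8.8% lower and 71.3% higher of all gene starts. Axl, a receptor tyrosine kinase, held 3.69 and 6.63 CPM against 20.9 and 20 in line 119 (log2 fold change -1.99 ± 0.265, adjusted p = 9.66e-09, edgeR). Tnc, which encodes the matrix protein tenascin-C, held 1.61 and 2.45 CPM against 14.8 and 13.7 (-2.80), and Tgfbi, a TGF-beta-induced matrix protein, 2.07 and 2.45 against 15.2 and 15.8 (-2.76). Nt5e, the ectonucleotidase CD73, was lower with -2.35, Pdgfrb with -1.80 and Wnt5a with -0.66. The receptor Ror2 went against these, with 19.4 and 15.7 CPM against 3.11 and 3.39 (2.43), and the water channel Aqp1 was higher by 1.57. Ngfr, the low-affinity nerve growth factor receptor, did not pass the test (0.09, adjusted p = 0.765), nor did Egfr (-0.66), Inhba (-0.13) and Pdgfra (-0.37). Among cadherins and factors of the epithelial to mesenchymal transition 6 of 9 were higher, about the share of all gene starts, and Cdh11 (1.79) was the one that stayed so under both scalings, and Twist1 (-0.01) and Snai1 (0.21) did not pass the test.

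Apart from the genes of chromosome Y, described below, collagen genes formed the list with the most uniform loss. Of 17 collagen genes, all with a tested start, 13 were lower in line 113, 6 of them at least 4-fold, and 0 were higher, with a median log2 fold change of -1.41 against 0.78 for all gene starts, of which 8.8% were lower and 2.59% at least 4-fold lower. Col5a2, a fibrillar collagen chain, held 0.461 and 1.72 CPM against 19.6 and 18.8 (-4.13 ± 0.383, adjusted p = 5.89e-13, edgeR). Col18a1, a basement membrane collagen, held 2.07 and 1.47 CPM against 11.7 and 11 (-2.65), Col8a1 3.23 and 3.19 against 19.8 and 17 (-2.51), and Col3a1 1.61 and 2.95 against 10.5 and 9.33 (-2.12). Col4a1 and Col4a2 share a region, which is counted for both (-1.41). Col1a1 (-0.12), Col1a2 (1.24), Col11a1 (-0.58) and Col27a1 (-0.27) did not pass the test. Near Col3a1, 11 of 12 regions within 50 kb were at least 4-fold lower, against 10.4% of regions near genes. Integrins and laminins did not share this: 12 of 21 were higher, 1 under both scalings (Itga4, 1.54), and Itga7 (-1.75) and Lamb1 (-1.33) were lower. Both higher counts lay below the shares of all gene starts, 71.3% higher and 19.5% under both scalings.

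Chemokine and protease genes were mixed, with large losses among them. Ccl2, which attracts monocytes, held 1.61 and 3.68 CPM in line 113 against 19.6 and 19.2 (log2 fold change -2.87 ± 0.319), Cxcl1, which attracts neutrophils, 2.77 and 0.982 against 13.6 and 13.7 (-2.83), and the neighbour of Ccl2, Ccl7, was lower with -2.39. Ccl5, a T cell attractant, was the reverse, with 14.1 and 23.3 CPM against 0.778 and 1.36 (4.14 ± 0.361, adjusted p = 9.91e-14, edgeR), at a region 739 bp from its start. In all, 6 of 14 cytokine genes were higher, 2 under both scalings, and 4 lower. For this list and the next, the shares of all gene starts were 71.3% higher, 19.5% under both scalings, and 8.8% lower. Timp1 and Timp3, inhibitors of metalloproteases, had log2 fold changes of -2.26 and -2.12, the gelatinase Mmp2 -1.97 and the urokinase Plau -1.69, while the membrane-bound Mmp16 (1.55) and Mmp15 (1.07) were higher under both scalings; 6 of 16 genes of this list were higher and 6 lower.

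The cytokine pathway that feeds STAT3 differed at single members. Oncostatin M (Osm), a gp130 cytokine, held 1.15 and 1.23 CPM at a region 464 bp from its start, against 9.85 and 9.5 (log2 fold change -3.00). Il11, another such cytokine, held 1.61 and 2.95 CPM over its start, the promoter printed above, against 17.2 and 16.8 (-2.90 ± 0.332, adjusted p = 2.19e-10, edgeR); this region was chosen after its values were seen, and the strongest region near it, 518 bp away, held 11.1 and 9.08 CPM against 19.1 and 21.4. The leukaemia inhibitory factor receptor, Lifr, held 36.4 and 40 CPM against 14 and 13.7 (1.46), and the kinase Tyk2 48 and 41.5 against 19.4 and 20.2 (1.18), the 2 of 14 genes of the list that were higher under both scalings. The shared receptor chain Il6st (0.82), Jak1 (0.69) and Jak2 (0.56) lay near the median start, and Il6, Il6ra and Osmr did not pass the test. Of 12 SOCS and PIAS genes 10 were higher, against 71.3% of all gene starts. Pias3 (1.14) and Pias4 (1.25) were so under both scalings, against 19.5% of all. Socs3, the feedback inhibitor that STAT3 induces, held 26.5 and 22.3 CPM against 22.6 and 23.2 and did not pass the test (0.10, adjusted p = 0.673, edgeR).

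Of 16 genes listed as STAT3 targets 10 were higher in line 113, Bcl2 alone under both scalings (1.10), and Timp1 was lower. Among all gene starts 71.3% were higher, 19.5% under both scalings, and 8.8% lower. Myc (0.61), Ccnd1 (0.68), Mcl1 (0.95) and Hif1a (0.96) lay near the median start; Bcl3 (-0.50, adjusted p = 0.26, edgeR) and Junb (-0.17) did not pass the test. Among C/EBP factors, Cebpa held 36.4 and 35.6 CPM against 30.8 and 33.2 (0.17, adjusted p = 0.414) and Cebpd 49.1 and 53 against 45.2 and 45.3 (0.17, adjusted p = 0.342), neither of which passed the test. Cebpb differed by 0.76, as the median start did, and Ddit3, a stress-induced member, by 1.30 at a region that also serves Mbd6. When scaled on gene starts, Cebpa and Cebpd came to -0.51 and Socs3 to -0.59, all lower past the threshold (adjusted p = 0.0027, 0.000492 and 0.00139, edgeR), and Cebpb to 0.08; Ngfr came to -0.59 (adjusted p = 0.0377). Of 12 genes of AP-1 factors 10 were higher, 5 under both scalings, and 0 lower, with the largest difference at Maff (1.17). The median of this list, 0.81, was near the 0.78 of all gene starts.

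The STAT genes next to Stat3 gave the largest differences among regions at gene starts that were higher in line 113 and held at least 10 CPM there. Stat5a and Stat5b, neighbours that encode the STAT5 factors of growth hormone and interleukin signalling, had almost no counts in line 119. The start region of Stat5a, chr11:100860145-100860690, held 90 and 94 counts in line 113 and 0 and 0 in line 119, which makes line 113 at least 99.3-fold higher with a floor of 3 counts over both libraries. The start region of Stat5b held 137 and 101 counts against 2 and 0, a ratio of 193 (95% exact interval 52.7 to 1600). Over the 9 regions of this stretch, chr11:100789591-100860690, line 119 had 2 counts in all and line 113 had 626, while the libraries of line 112 had 333 and 249 and those of line 73 had 331 and 277. The regions on either side were measured in line 119: 71 and 67 counts at Ghdc, and 7 and 12 at the nearest region of Stat3. Both other lines held Stat5a at 19.5 and 19.3 CPM on average, so line 119 was the line that stood apart. The other STAT genes differed by 0.74 to 1.08. Intervals and floors here cover counting error only.

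A search for such stretches was made after values were seen. It asked for at least 6 consecutive regions, each with 3 counts or fewer over both libraries of one line together, and found 8 stretches for each line. Around Dynlt1b, a dynein light chain gene, chr17:6424490-6566767 held 6 counts in line 119 and 682 in line 113, a ratio of 184 (84.1 to 503); this gene has near-identical neighbours, which makes its counts uncertain. In Ptprd, a receptor phosphatase, 9 regions of chr4:76097581-76260033 held 18 counts against 237, a ratio of 21.3 (13.2 to 36.6), and line 73 had 21. In the other direction, on chromosome Y, 9 regions over Ddx3y, Eif2s3y, Kdm5d and Uty held 1 count in line 113 and 777 in line 119, a ratio of 480 (85.9 to 19000), with 0 counts in line 112 and 500 in line 73. A region by Xist, the X-inactivation RNA, chrX:103481449-103482192, held 73 and 56 counts in line 113 against 2 and 4 in line 119. Line 112 gave 38 and 30 counts there, and line 73 gave 4 and 2. Xist and chromosome Y counts thus separate both knockout lines from both wild-type lines, and their part cannot be told apart from genotype. A stretch between genes, chr11:15846889-16135730, held 10 counts in line 113 and 842 in line 119, a ratio of 52 (28.2 to 109). Whether DNA is missing in such stretches or is closed was not tested.

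**Figure D4:**
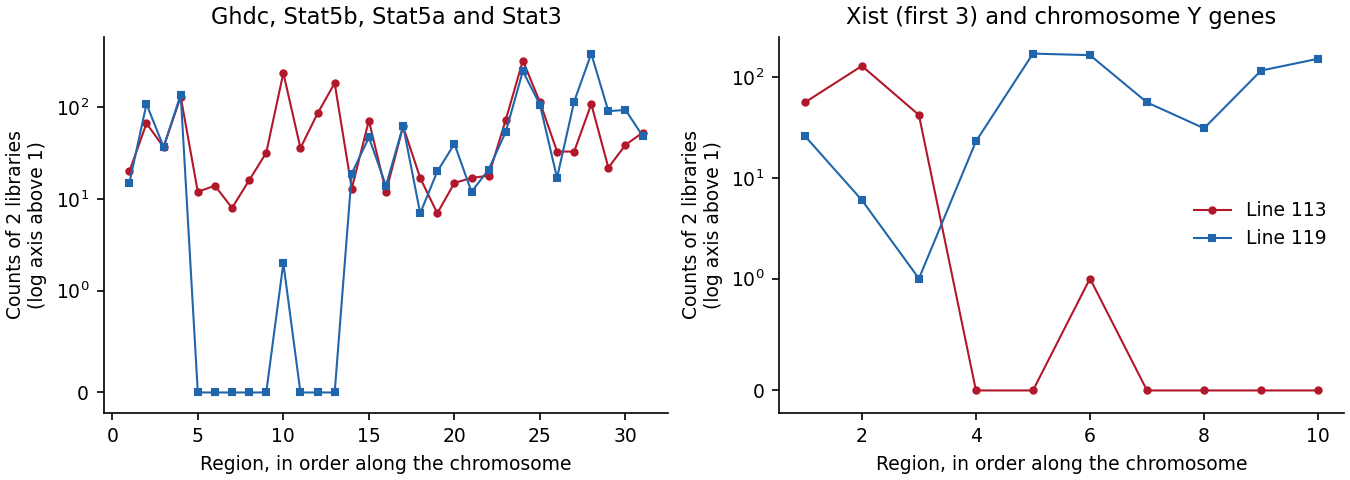
Counts summed over the 2 libraries of a line (log axis above 1) at consecutive regions in order along the chromosome, for line 113 (red circles) and line 119 (blue squares). Line 119 falls to 0 to 2 counts over Stat5b and Stat5a and is counted on both sides (left), and line 113 is at 0 or 1 over the genes of chromosome Y, after 3 regions by Xist (right).

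Beyond these stretches, the regions within 1 kb of a gene start with the largest differences, 1 per gene and at least 10 CPM in the higher line, lay at genes of many kinds. Higher in line 113 were Pfkfb1, a glycolytic regulator (89 counts against 2, ratio 72, interval 19.4 to 604), Sdcbp, the scaffold syntenin (168 against 6, 45.3), the predicted gene LOC108167368 (139 against 4, 56.2), Sdk1, a cell adhesion gene (399 against 15, 43, interval 25.8 to 77.6), and Cyb5a, cytochrome b5 (267 against 11, 39.3). For Pfkfb1, Sdcbp and Cyb5a this was a second region beside the main start, whose strongest region differed by 0.86, 0.51 and 1.26 on the log2 scale. Lower were Ticam2, an adaptor of toll-like receptor 4 (6 counts against 310, ratio 31.9), Rbmx, an RNA-binding protein gene (8 against 326, 25.2), the T-box factor Tbx18 (8 against 290, 22.4), the placental cathepsin Cts3 (5 against 183, 22.6), the costimulatory ligand Cd86 (5 against 181, 22.4) and Veph1 (9 against 314, 21.6), beside Eif2s3y and Ddx3y (0 counts in line 113, at least 35.2-fold and 31.3-fold lower). Away from starts, a region 15791 bp from Fgl1 held 138 and 141 counts against 0 and 0, at least 151-fold higher, and another, 602972 bp from the start of its nearest gene Nxph1, held 165 counts against 1 (ratio 267, interval 47.3 to 10600). A region inside the synaptic vesicle gene Sv2c held 0 and 0 counts against 169 and 113, at least 58.1-fold lower, and a region inside the glutamate receptor gene Grin2b 0 and 0 against 111 and 73, at least 37.9-fold lower.

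Among genes of developmental signalling, single members differed strongly. Bmp7, a bone morphogenetic protein, held 74.7 and 62.8 CPM against 7.13 and 5.77 (log2 fold change 3.40 ± 0.208, adjusted p = 1.89e-18, edgeR), and 17 of the 21 regions within 50 kb of it were at least 4-fold higher, the most of any gene. The next genes by that count were Pax3, Nav1, a neuron navigator gene (12 of 25), Stard8 (12 of 17), Fbln5, a matrix protein gene (10 of 19), Mitf (10 of 30), Cyria (9 of 29) and Eefsec (9 of 15). On the lower side were the predicted gene Gm7361 (16 of 18), Smoc2 (12 of 19), Cobl (11 of 18), Col3a1, Glis3 (11 of 16), Tns3 (11 of 26), Btc, the growth factor betacellulin (10 of 17), and Fndc3b (10 of 23). The genes on both sides were picked by these counts. Of all regions within 50 kb of a gene, 7.93% were at least 4-fold higher and 10.4% at least 4-fold lower. Against 71.3% of all gene starts higher and 19.5% under both scalings, 14 of 17 TGF-beta pathway genes were higher, 4 under both scalings, with Smad3 at 1.37, and Tgfb2 was lower (-0.96). Of 24 Wnt pathway genes 15 were higher, 8 under both scalings; Dkk3, an extracellular modulator, held 16.8 and 17.2 CPM against 1.04 and 1.7 (3.65), Wnt4 differed by 1.91, and Sfrp2 and Dkk2 were lower (-0.79 and -0.78). Of 12 genes around TEAD, YAP and TAZ 10 were higher, 2 under both scalings: Ccn2, a matricellular YAP target, held 46.8 and 41.2 CPM against 9.98 and 11.5 (2.04), while another such target, Ankrd1, was lower (-1.74).

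Of 35 axon guidance genes, which also steer neural crest cells, 24 were higher and 4 lower, near the 71.3% and 8.8% of all gene starts, and 11 were higher under both scalings, against 19.5% of all. Plxnc1, a semaphorin receptor, held 65.9 and 52.5 CPM against 9.33 and 9.33 (log2 fold change 2.66), Robo1, a Slit receptor, 56 and 55.7 against 10.4 and 8.65 (2.54), and the netrin receptors Unc5c and Dcc differed by 2.18 and 2.41. Sema3d, a secreted semaphorin, was lower (2.07 and 1.23 CPM against 12.4 and 10.2, -2.75), as was Robo2 (-1.22). Of 30 Hox genes with a tested start, which record position along the body, 13 were higher, 5 under both scalings, among them Hoxb2 (2.84), Hoxa13 (2.29), Hoxa3 (2.05) and Hoxb5 (1.78), and 4 were lower: Hoxc13 (3 and 1.23 CPM against 17.2 and 16.8, -2.98), Hoxc6 (-1.28), Hoxc4 (-1.15) and Hoxc10 (-0.87). Hoxc9, of that cluster, was higher by 1.04 under the TMM scaling of all regions alone.

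The genes with the most 4-fold regions inside their bodies, picked by these counts, were as follows. In Ptprd 35 of 36 regions were at least 4-fold higher in line 113, with a median of 4.63 CPM against 0.277, and in Etl4 26 of 47, in Ptprg 22 of 40, in Sox5 20 of 91 (9 lower), in Dlc1 19 of 48 (4 lower), in Efna5 19 of 33 and in Fhit 16 of 49, where 21 were at least 4-fold lower. At least 4-fold lower were 34 of 78 regions in Dlg2, a synaptic scaffold gene (4 higher), 31 of 41 in Alk, a receptor tyrosine kinase gene, 31 of 39 in Cacna2d3, a calcium channel subunit gene, 27 of 35 in Dpp6, 26 of 51 in Nrxn3, 26 of 53 in Ptprt, 25 of 44 in Ctnna3 and 25 of 66 in Opcml. Inside genes as a class, 10.8% of regions were 4-fold higher and 13.2% lower. At the starts of 27 genes listed for synaptic adhesion or as large neuronal genes 9 were higher, 6 under both scalings, and 7 lower. The shares of all gene starts were 71.3%, 19.5% and 8.8%. Sorcs1, a sorting receptor, held 41.5 and 31.9 CPM against 0.778 and 1.36 (log2 fold change 5.12 ± 0.327), Grik2 differed by 2.13, and Csmd1 (-1.91) and Gria1 (-2.17) were lower. Starts and bodies did not always match: the start of Ctnna3 was higher (1.10) although 25 regions inside it were at least 4-fold lower.

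Ribosomal protein and lysosomal genes had medians close to that of all gene starts, 0.78. Among all gene starts 71.3% were higher, 19.5% under both scalings, and 8.8% lower. Of 49 ribosomal protein genes 46 were higher, 9 under both scalings, with a median of 0.82, and of 22 lysosomal genes 20 were higher, 1 under both scalings, with Atp6v0d2 lower (-3.22). Actb differed by 0.64 (-0.05 when scaled on gene starts) and Gapdh by 1.17. Genes for D cyclins, their kinases and inhibitors had a larger median, 0.97, and 12 of 13 were higher, 7 under both scalings. Among these 7 were the inhibitor Cdkn2a (85.5 and 79.3 CPM against 35 and 31.4, 1.31) and the retinoblastoma gene Rb1 (1.29). MAPK feedback genes gave 12 higher of 13, 3 under both scalings, with Spry4 at 1.14. In antigen presentation 6 of 13 genes were higher and 0 of them under both scalings, with B2m at 0.72 and Tapbp at 0.73, and Psmb8 was lower (-1.01). Of the Runx genes, Runx2 was higher under both scalings (10.8 and 10.3 CPM against 2.98 and 3.05, 1.80), and Runx1 (0.33) and Runx3 (-0.25) did not pass the test.

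Chromosomes differed less than loci, with exceptions. Chromosome 19 had 42.3% of its 3668 regions higher in line 113 and 20.7% lower, chromosome X 39.4% and 26.4%, while chromosomes 13, 14 and 18 had more regions lower (34.6% to 35.5%) than higher. In weakly open regions far from gene starts, whose median over all chromosomes was -0.39, the median was 0.31 on chromosome 19 and 0.24 on chromosome 6. With an offset for windows of 10 Mb, 78672 regions were called.

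Marker genes of the labelled cell type had counts in both lines, though unevenly. In line 119 the mean was 0.748 CPM at Mlana, 1.03 at Tyrp1 and 1.72 at Slc45a2, against 32.8 at Pmel and 17.6 at Sox10. All 12 melanocyte lineage markers had a tested start with counts in each line, and 11 were higher in line 113, 8 under both scalings; their summed accessibility was 435 and 376 CPM in line 113 and 139 and 138 in line 119, against 222 to 271 in line 112 and 139 to 144 in line 73. Of 5 neural crest markers 0 were higher and 3 lower, with sums of 159 and 149 CPM against 187 and 196. For these markers and those below, the shares of all gene starts were 71.3% higher, 19.5% under both scalings, and 8.8% lower. Of markers of other cells that a lymph node or skin could hold, a tested start was found for 4 of 12 lymphocyte, 4 of 10 macrophage and dendritic, 9 of 10 fibroblast, 2 of 8 endothelial, 6 of 8 Schwann cell and 2 of 7 keratinocyte markers, and 0 of these were at 0 in either line. Defining markers such as Ptprc, Cd3e, Csf1r, Pecam1, Krt5 and Krt14 had none. Sums in lines 113 and 119 were 58.4 to 62.2 and 40.5 to 42.5 CPM for lymphocytes (Cd2 higher, Ms4a1 lower), 24.1 to 35.3 and 14.8 to 15.6 for macrophages (3 higher), 43.4 to 53.3 and 53.7 to 58.2 for fibroblasts (2 higher, 3 lower), 7.84 to 8.59 and 14.4 to 15.3 for endothelium (Erg lower), 192 to 221 and 116 to 119 for Schwann cells (6 higher, S100b alone under both scalings, 1.97) and 4.66 to 5.99 and 5.31 to 7.12 for keratinocytes (0 either way). The median log2 fold change of the Schwann cell markers, 0.78, was that of all gene starts. The part of such other cells in the differences above, the lower collagen and chemokine genes among them, was not tested.

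The other pair of lines was compared with lines 113 and 119. Of the 12172 regions at least 4-fold higher in line 113, 63.6% were also higher in line 112 than in line 73 and 3.46% lower, where 25.4% of all regions were higher in line 112. Of the 18582 at least 4-fold lower ones 36.1% were also lower in line 112 and 10.3% higher, where 27% of all regions were lower in line 112. The difference between the 2 pairs, tested in edgeR as (113 minus 119) minus (112 minus 73), passed 0.05 at 58882 regions (43.9%), at 28.7% of the 4-fold higher and at 60.6% of the 4-fold lower regions. Among the pigment genes, Dct (log2 fold change 5.40 in the other pair), Mlana (5.19), Slc45a2 (2.81), Rab27a (3.01), Mlph (2.43), Kit (1.83) and the downstream Mitf start (4.43) were higher in line 112 too, and the difference between pairs did not pass the test at these 7; for Dct it was -1.33 (adjusted p = 0.101) and for Kit 0.16 (adjusted p = 0.749). At Tyrp1 the pairs differed, with 0.95 in the other pair and a difference of 2.95 ± 0.612 (adjusted p = 0.000101). The test was also passed at Pmel (-0.87 in the other pair, difference 1.85) and the upstream Mitf start (-0.60, difference 1.56). Sox10 (2.89, difference -2.20) and the strongest region of Tyr (3.29, difference -1.24, adjusted p = 0.0418) passed it too. The region over the start of Tyr did not (3.38, difference 1.19, adjusted p = 0.231). Losses in both pairs, for which the difference between pairs did not pass the test, included Tnc, Tgfbi, Ccl2, Cxcl1, Col8a1, Timp1 and Hoxc13, with log2 fold changes of -2.16 to -3.87 in the other pair. The pairs also differed at Axl (-0.47 in the other pair, difference -1.52, adjusted p = 0.000337), Nt5e (0.88, difference -3.23, adjusted p = 3.97e-09) and Osm (0.09, difference -3.09, adjusted p = 6.72e-05). The difference between pairs passed the test at 68 of the 110 genes named from the lists or as fixed genes. Over all gene starts it passed at 11091 of 14261. Gene starts as a whole went in opposite directions, with a median of 0.78 in line 113 over 119 and -0.51 in line 112 over 73, so a difference for a gene near these medians repeats that shift.

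**Figure D5:**
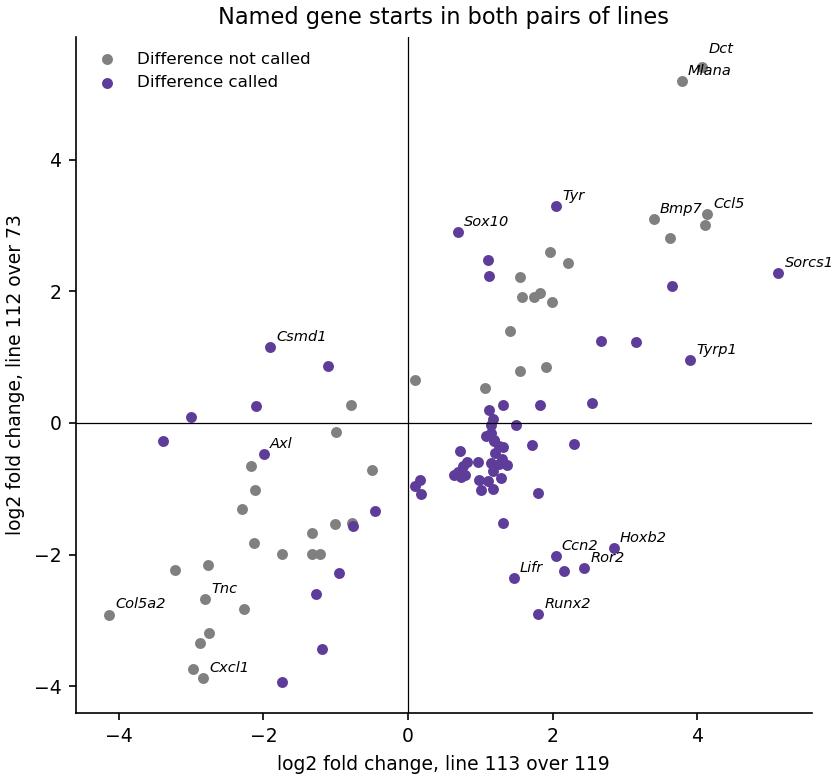
Log2 fold change of line 113 over 119 (horizontal) against that of line 112 over 73 (vertical) at the strongest start region of named genes, each point 1 gene, purple where the difference between the pairs passed the test; Stat5a, Stat5b, Eif2s3y and Ddx3y, with 0 or almost 0 counts in a line, are not drawn. Dct and Mlana lie high in both pairs, Col5a2 and Cxcl1 low in both, and Runx2, Hoxb2, Ror2 and Lifr high in the first and low in the second.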

How the data were processed

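ATAC-seq libraries of 4 mouse melanoma lines, 2 libraries per line, were used as deposited. The authors deposited raw counts for 148664 regions of 501 to 3708 bp, and per library a peak list with a score, a fold over background and −log10 p and q values per peak; only the peak positions were used here, with an overlap of at least 1 bp. Per the submitters' processing notes, the build was mm10 (GRCm38) and the tools were Bowtie2 2.2.4, Picard 1.118 and MACS2 2.1.1.20160309, without stated roles; how duplicates were treated and how reads were counted is not given in the sources used here. No reference genome was used, and gene positions and promoters came from RefSeq tables (GRCm38.p6), with 4405 of 21896 protein-coding genes placed by their ends because the table gave no start.

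Counts were tested with edgeR 4.0.16 (R 4.3.3; filterByExpr with a minimum count of 10 and total of 15, TMM, robust quasi-likelihood fit) over all 8 libraries with a term per line, which left 134068 regions (90.2%), with Benjamini-Hochberg adjustment over all of them and a threshold of 0.05. Fold changes are log2, given with their standard error. A gene was represented by its strongest region within 1 kb of a start. Gene lists and members were chosen with earlier results of these data known. Named by rule were, at 10 CPM or more in the higher line, the 8 called regions of largest fold change in each direction at gene starts and elsewhere, the 8 genes with most 4-fold regions within 50 kb, 20 fixed genes and the 2 largest called changes of each list in each direction; other list members, and the genes with most 4-fold regions inside them, were named after their values were seen. Ratios of counts carry 95% exact intervals, and a line at 0 was set to 3 counts over both libraries. Replicate numbers did not pair the libraries: the correlation of same-numbered deviations between lines 113 and 119 was -0.0042. Alternatives were other scalings, filters and tests (limma 3.58.1, DESeq2 1.42.0), thinning, a replicate block and leaving out each library. Results for some genes and stretches are not reported here.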

Additional observations from a re-analysis of the deposited data

Results flagged for a closer look

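The difference between lines 113 and 119 was itself different from that between lines 112 and 73 at 58882 regions in edgeR's test of the difference. Other named genes, such as Pmel (0.98 and -0.87) and the upstream Mitf start (0.97 and -0.60), were called in opposite directions with smaller changes and are not listed here. With a log2 fold change of at least 1 in size in each pair, 10 named genes were called in opposite directions. At each of these genes the value below is the log2 fold change of the first pair minus that of the second. Scaled on gene starts, the difference between lines 113 and 119 did not pass the test at Dcn (adjusted p = 0.136, edgeR), Cd68 (0.196) and Cebpz (0.0847).

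Ccn2, a YAP target, had a difference of 4.06, with mean accessibility, in the order 113, 119, 112 and 73, of 44, 10.8, 19.2 and 78 CPM. Ror2 had 4.64, with 17.5, 3.25, 8.33 and 37.9 CPM, and Lifr 3.82, with 38.2, 13.9, 6.32 and 31. Runx2, a skeletal transcription factor, had 4.71 (10.6, 3.02, 2.33 and 18.3 CPM) and Hoxb2 4.74 (8.65, 1.26, 4.3 and 15.2 CPM). Cdh11, a mesenchymal cadherin, had 2.86 (19.1, 5.48, 6.32 and 12.7 CPM), and the fibroblast proteoglycan Dcn 4.39, with low values of 1.07, 0.214, 1.66 and 7.81 CPM. Cd68, a macrophage lysosomal protein, had 2.83 (5.05, 1.95, 4.58 and 12.9 CPM) and Cebpz 2.03 (36.3, 18, 16.9 and 34.7 CPM). Csmd1, a large neuronal gene, was the one in the other direction, with -3.06 (4.89, 18.4, 5.92 and 2.55 CPM). At the first 9 of these genes line 73 was more open than line 112 and line 113 more open than line 119.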

How the results depend on the processing

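The count of called regions, 81992, came to 57500 with DESeq2's Wald test and 81044 with a replicate block, which left the direction and the call of all 138 named items as they were; it came to 22253 with a mean count of at least 50 (11321 higher, 10932 lower), which tests fewer regions, and to 38963 against a minimum log2 fold change of 1 (15998 higher, 22965 lower). The higher count came to 18853 scaled on gene starts and 26647 with libraries thinned to the lowest total. Leaving out 1 library gave 63196 to 88921 called regions, 27636 (without line 119 replicate 1) to 45533 higher, 33078 to 46108 lower, and 48171 to 56761 for the difference between pairs; the lone library is then assumed to vary like the others.

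At gene starts the higher and lower shares, 63.1% and 10.6%, came to 50.7% and 16.6% within 5 kb, 54.7% and 12.9% with total counts, 16.9% and 21.5% scaled on gene starts, 33.3% and 14.8% with a cyclic loess offset, and 49.5% and 9.77% after thinning. Leaving out 1 library gave 36.8% (without line 119 replicate 1), 40.5% (without line 119 replicate 2) and up to 66.3% higher, and 8.22% to 12.3% lower. The scalings on gene starts and by loess were chosen after seeing the data.

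Of 133 named items that passed the test, 106 kept direction and call under every alternative run on them. The log2 fold changes that changed sign were these. With total counts Ngfr came to -0.12, Cebpa to -0.045, Cebpd to -0.042 and Socs3 to -0.12. Scaled on gene starts Ngfr came to -0.59, Cebpa to -0.51, Cebpd to -0.51, Socs3 to -0.59 and Actb to -0.045. With loess Cebpa came to -0.47, Cebpb to -0.018, Cebpd to -0.64, Socs3 to -0.49, Cdh2 to -0.25, Cbfb to -0.078 and Tapbp to -0.084. Thinned, Ngfr came to -0.22, Cebpd to -0.048, Socs3 to -0.46 and Bcl3 to 0.0047. With a 10 Mb offset Ngfr came to -0.39, Cebpa to -0.087 and Socs3 to -0.10. Leaving out 1 library gave -0.10 to 0.21 for Ngfr and -0.033 to 0.22 for Socs3. The cause was not tested.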
